A study of Mus musculus with 8 samples.

Results

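The SLC25 family of mitochondrial carriers was examined in whole mouse liver with and without raised Lpcat3. Its genes were taken by name: protein-coding rows of the deposited count table whose mouse symbol begins with Slc25a and that held at least 80 counts over 8 libraries. Of 47 such rows, 43 met the minimum, out of 40838 rows in all. The 4 rows below it were Slc25a31 with 22 counts, Slc25a2 with 49, Slc25a41 with 2 and Slc25a54 with 1. The members with the fewest counts were Slc25a43 with 131 and Slc25a53 with 137. All 43 members passed the filter on low counts and were tested among 17438 genes.

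SLC25 proteins sit mostly in the inner mitochondrial membrane and exchange metabolites between the matrix and the cytosol. They bring in ADP, phosphate, acylcarnitines, iron and coenzymes, and send out ATP, citrate and the intermediates of the urea cycle and of gluconeogenesis. Hepatocytes depend on several of them for ammonia disposal, fatty acid oxidation and the transfer of reducing equivalents.

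The livers came from C57BL/6 mice, an inbred strain, on a diet that causes nonalcoholic steatohepatitis (NASH), a fatty liver disease with inflammation. After 7 weeks of diet the mice received an adeno-associated virus (AAV) whose TBG promoter drives expression in hepatocytes, and the diet went on for 9 more weeks. The virus carried Lpcat3 in 4 samples and enhanced green fluorescent protein (eGFP) in 4 control samples, so all samples share the strain, the diet of 16 weeks and an AAV. Lpcat3 encodes an acyltransferase that puts polyunsaturated chains into membrane phospholipids, and the series title ties its activity to mitochondria. The labels do not state that the samples are separate animals, and the spread behind each p-value may be technical. Whole tissue RNA was sequenced, and a smaller number of cells of a type cannot be told apart from less RNA per cell.

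Totals ran from 22433625 to 25651874 counts per library. Levels are CPM, read counts scaled to a common library total after TMM normalization, and a log2 fold change is the Lpcat3 group over the eGFP group from the fit across all genes. Values with ± are means and SDs of 4 libraries, with the Lpcat3 group first. Lpcat3 was at 274 to 465 CPM in its own group and 133 to 173 CPM in the controls, so the delivered gene followed the labels. Its log2 fold change of 1.25 still had an adjusted p of 0.164 in edgeR's quasi-likelihood test. Hepatocyte markers had the highest sums of the lists checked (44045 to 87512 CPM over 8 genes), and muscle markers were near 0, with Ckm and Myh6 at 0 counts. The 7 markers of Kupffer cells and other macrophages were all on the lower side in the Lpcat3 group, with sums of 245 to 348 CPM against 368 to 592 CPM, and the 6 endothelial markers were too (305 to 385 against 384 to 422 CPM). Taken singly, all of these but Cdh5 overlapped between groups, and 0 had an adjusted p under 0.05. Over all genes, 8980 of 17438 were on the lower side. The tested markers of T, NK and B cells (5) and of neutrophils (4) were all on the lower side too. Of the cholangiocyte markers 4 of 5 were on the higher side, and erythroid and stellate markers went both ways. Hepatocyte marker sums were 56156 to 87512 CPM in the Lpcat3 group and 44045 to 74562 CPM in the controls. Alb alone, at 28657 to 56982 CPM, made up most of each sum. What part these differences have in the carrier results was not tested. Lpcat3 replicate 3 and eGFP replicate 3 lay at the ends of the first principal component (50.96 and -46.1, with 40.9% of the variance). Values refitted without both are given beside the members and lists whose estimates they move most. Code numbers in the titles (1290 and 1317, or 1344 and 1345), whose meaning is not given, divide the libraries unevenly by group. The first pair of codes holds Lpcat3 replicate 1 and eGFP replicates 1 to 3, and the second holds the other 4 libraries, so a difference within either rests on 1 library of one group.

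Between members, levels can be set side by side only per length, here as CPM per kilobase of exon. Slc25a5, the main ADP/ATP carrier of proliferating and liver cells, was the most abundant member, at 211 ± 1.89 and 199 ± 14.9 in the Lpcat3 and eGFP groups on that scale. Next came Slc25a47, a carrier largely restricted to liver (83.7 ± 9.805 and 84.8 ± 7.24), and Slc25a39, which brings glutathione into mitochondria (84.7 ± 5.26 and 75.6 ± 3.64). Their order depends on the group, and their ranges overlap. Slc25a13, the liver form of the aspartate/glutamate carrier also called citrin, was at 74.7 ± 10.1 and 61.99 ± 11.98. At the low end, Slc25a53 was at 0.0934 ± 0.0236 and 0.0862 ± 0.0304. Reads of Slc25a5 are uncertain because near-identical processed pseudogenes of it exist and the counting rule is not given.

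**Figure D1:**
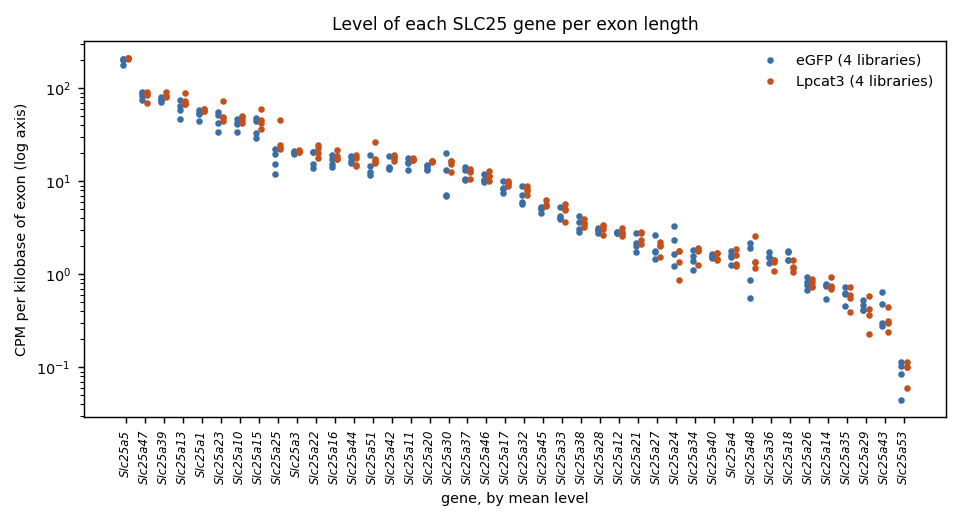
Each point is one library, as CPM per kilobase of exon on a log axis, for 42 members in order of mean level; blue is eGFP and orange is Lpcat3. Slc25a5 lies above all other members in every library, and the 2 groups overlap for most members.

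Among close relatives for one substrate, the following pairs kept the same order in all 8 libraries. Per kilobase, Slc25a5 exceeded Slc25a4, the heart and muscle ADP/ATP carrier, by 113 to 172 times. Slc25a13 exceeded Slc25a12, the form of muscle and brain, by 17.04 to 28.4 times, and Slc25a39 exceeded the other glutathione carrier, Slc25a40, by 45.5 to 63.9 times. Slc25a37 (mitoferrin 1) exceeded Slc25a28 (mitoferrin 2), both iron importers, by 3.25 to 4.79 times. The ratio of the glutamate carriers Slc25a22 and Slc25a18 was 17.7 ± 2.04 in the Lpcat3 group and 11.2 ± 2.78 in the eGFP group (SD, n = 4 each), and the groups did not overlap. That difference had the smallest p that 70 relabellings allow (two-sided exact permutation p = 0.0286), and 0.2 after Benjamini-Hochberg adjustment over the 7 ratios compared. The other 6 ratios overlapped between groups, with adjusted p of 0.2 (Slc25a25 over Slc25a23) to 0.943 (exact permutation tests). These pairs were chosen after the values were seen.

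Between the groups no member passed the test: 0 of 43 had an adjusted p under 0.05 in edgeR's quasi-likelihood test, where 0.00573% of all genes passed (1 of 17438). The delivered gene, Lpcat3, did not pass it either, so a member that does not pass may still differ. Adjusted p ran from 0.564 to 0.999, and DESeq2, in which 0.292% of all genes passed, and limma-voom also called 0 members. At an unadjusted p under 0.05 there were 5 members, 4 on the higher side in the Lpcat3 group (Slc25a20, Slc25a25, Slc25a39 and Slc25a45) and 1 on the lower side (Slc25a18). This is 11.6% of the members, beside 8.48% of all genes (3.3% higher and 5.18% lower). The groups did not overlap for 4 members (Slc25a20, Slc25a39, Slc25a45 and Slc25a5), 9.3% beside 4.16% of all genes, and all 4 were on the higher side, as were 1.93% of all genes. With 1 library left out, 2 to 16 members had an unadjusted p under 0.05. The 16 (37.2%) came without eGFP replicate 4, a refit in which 14.5% of all genes had such a p. In the other 7 refits the share of all genes was 5.47% to 10.7%, and the members' count was 2 without eGFP replicate 3 or any of Lpcat3 replicates 2, 3 and 4, and 3 without the others.

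Of 43 members, 33 had a log2 fold change above 0, or 76.7%, beside 48.5% of all genes tested, and the median was 0.13 beside -0.01 over all genes. Among the 29 members with at least 10 CPM on average, 26 were above 0 with a median of 0.16. All 8473 genes of that abundance had a median of 0.02, with 55.9% above 0. Of the 14 members under 10 CPM, 7 were above 0 with a median of 0.02, beside 41.5% and a median of -0.06 over all genes of that abundance. Members are not independent of each other and the list has no test of its own. Without both libraries numbered 3 the count was 29 of 43 and the median 0.04. Within codes 1290 and 1317 the median was 0.13 with 30 members above 0, and within 1344 and 1345 it was 0.02 with 24 above 0. Scaling by library totals lowers the median of all genes to -0.13. With it 22 members were above 0 and their median was 0.01, so the sign of small differences depends on the scaling. Another scaling moves all genes by nearly the same amount, so it cannot test the difference from the median gene.

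**Figure D2:**
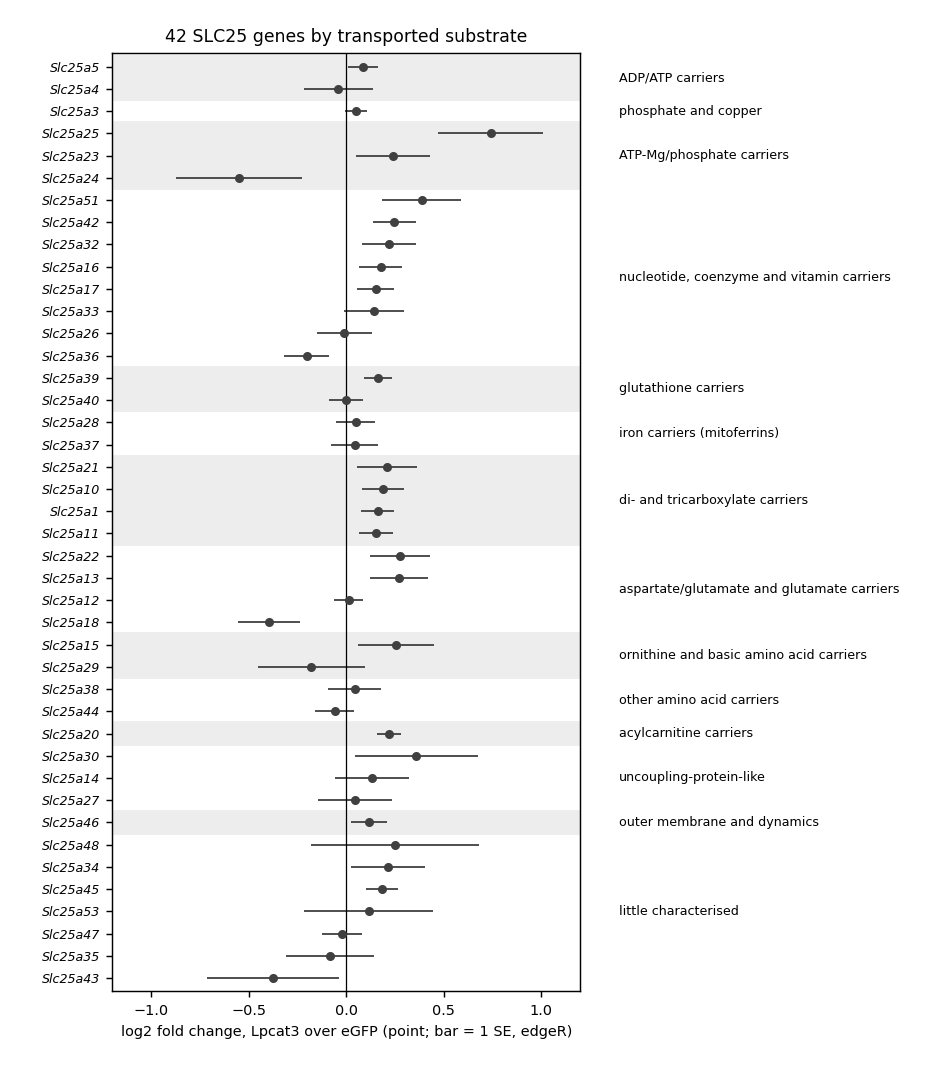
Points are log2 fold changes of the Lpcat3 group over the eGFP group and bars are 1 SE derived from the edgeR test, for 42 members in bands by substrate. Of these, 32 lie above 0, from 0.00 (Slc25a40) to 0.74 (Slc25a25), and 10 lie below, down to -0.55 (Slc25a24).

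Slc25a20, the carnitine/acylcarnitine carrier that admits long-chain fatty acids for oxidation, had the smallest p of the family. Its level was 77.7, 81.3, 79.9 and 81.2 CPM in the Lpcat3 libraries (replicates 1 to 4, in that order throughout) and 71.6, 66.05, 64.3 and 73.1 CPM in the eGFP libraries. Every Lpcat3 library lay above every eGFP library, and the 4 Lpcat3 libraries spanned 77.7 to 81.3 CPM. Its mean was 80.03 ± 1.66 against 68.8 ± 4.23 CPM (SD, n = 4 each). On the log2 scale the edgeR estimate was 0.22 (SE 0.06; adjusted p = 0.564). The difference kept its direction in all 17 refits, at 0.19 without both libraries numbered 3, and measured 0.21 and 0.14 within the code pairs. With library totals it was 0.10. The enzymes that make and unmake acylcarnitines on either side of the membrane showed estimates in the same range: Cpt1a was at 789 ± 59.8 against 675 ± 116 CPM and Cpt2 at 134 ± 10.05 against 118 ± 13.5 CPM, with adjusted p of 0.638 and 0.625 in edgeR. Their log2 fold changes of 0.23 and 0.18 were 0.12 and 0.05 without the 2 libraries numbered 3. Within codes 1290 and 1317 the differences of Cpt1a and Cpt2 were 0.25 and 0.19, and within 1344 and 1345 they were -0.03 and 0.05. Of the 6 genes of the carnitine system, 5 were above 0 with a median log2 fold change of 0.16, and 0 passed. Crot was below, at -0.09.

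The ATP-Mg/phosphate carriers adjust the pool of adenine nucleotides in the matrix and respond to calcium. Slc25a25, one of them, had the largest estimate of any member. It was at 174, 195, 360.3 and 182 CPM in the Lpcat3 libraries and 155, 176, 120.0 and 94.8 CPM in the eGFP libraries. Lpcat3 replicate 3 stood far above the rest, and Lpcat3 replicate 1 lay below eGFP replicate 2, so the groups overlapped. Its mean was 228 ± 88.6 against 136 ± 36.2 CPM (SD, n = 4 each). On the log2 scale the edgeR estimate was 0.74 (SE 0.27; adjusted p = 0.569). Without Lpcat3 replicate 3 the log2 fold change was 0.43, and without both libraries numbered 3 it was 0.37. Within codes 1290 and 1317 it was 0.23, and within 1344 and 1345 it was 1.30, the latter set against eGFP replicate 4 alone, the lowest library. The gene overlaps Naif1 (34351 and 440 counts).

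Slc25a23, the most abundant carrier of this group, was at 257, 264, 391 and 239 CPM in the Lpcat3 libraries and 222, 276, 182 and 293 CPM in the eGFP libraries. Replicate 3 of the Lpcat3 group was again the highest library and eGFP replicate 3 the lowest. The log2 fold change was 0.24 (SE 0.19; adjusted p = 0.698) and was -0.06 without both libraries numbered 3. Slc25a24 had the opposite estimate, -0.55 (SE 0.33; adjusted p = 0.647), the lowest of the family. Its CPM values were 4.69, 6.14, 3.02 and 6.17 CPM in the Lpcat3 libraries and 8.13, 5.64, 11.4 and 4.21 CPM in the eGFP libraries. Here eGFP replicate 3 was the highest library and Lpcat3 replicate 3 the lowest, the reverse of Slc25a23. Without both of them the estimate was -0.08, and within the code pairs it was -0.77 and 0.20. The summed macrophage markers were 517 CPM in eGFP replicate 3 and 592 CPM in eGFP replicate 1, the libraries where Slc25a24 was highest. The Lpcat3 group went the other way: replicate 4 had its lowest sum (245 CPM) and its highest Slc25a24 (6.17 CPM). Within the groups (n = 4 each) r with the mean of those markers was 0.73 for eGFP and -0.53 for Lpcat3. Over the 8 libraries Slc25a24 and the mean of those markers had r = 0.50 (exact permutation p = 0.203) and rho = 0.31 (exact p = 0.462), and the part of macrophages in its level was not tested.

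Start-site sequences are shown for the 4 members with an unadjusted p under 0.05 on the higher side. They are the 250 bases before a start site in RefSeq (GRCm38.p6, which is not the authors' build), 5′ to 3′ on the gene's strand, with motif matches in capitals. The table lists 3 starts for Slc25a25, and the counts do not tell them apart. The one printed was chosen for its match.
Slc25a20, chr9:108661886-108662135, plus strand: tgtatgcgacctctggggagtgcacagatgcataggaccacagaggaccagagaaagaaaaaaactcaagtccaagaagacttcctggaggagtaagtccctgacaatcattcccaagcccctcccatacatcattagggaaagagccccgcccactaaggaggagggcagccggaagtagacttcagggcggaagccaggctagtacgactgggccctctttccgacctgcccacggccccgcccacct
Slc25a25, chr2:32424067-32424316, minus strand: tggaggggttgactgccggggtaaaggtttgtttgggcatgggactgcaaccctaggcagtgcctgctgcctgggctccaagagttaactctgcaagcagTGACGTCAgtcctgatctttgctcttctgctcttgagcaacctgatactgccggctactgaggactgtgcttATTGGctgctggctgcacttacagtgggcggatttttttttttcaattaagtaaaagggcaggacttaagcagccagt
Slc25a39, chr11:102407518-102407767, minus strand: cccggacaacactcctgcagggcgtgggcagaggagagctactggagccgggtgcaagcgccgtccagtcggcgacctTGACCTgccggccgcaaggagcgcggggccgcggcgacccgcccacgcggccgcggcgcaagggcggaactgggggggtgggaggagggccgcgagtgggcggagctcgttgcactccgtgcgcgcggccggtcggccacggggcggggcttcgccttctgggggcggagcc
Slc25a45, chr19:5877572-5877821, plus strand: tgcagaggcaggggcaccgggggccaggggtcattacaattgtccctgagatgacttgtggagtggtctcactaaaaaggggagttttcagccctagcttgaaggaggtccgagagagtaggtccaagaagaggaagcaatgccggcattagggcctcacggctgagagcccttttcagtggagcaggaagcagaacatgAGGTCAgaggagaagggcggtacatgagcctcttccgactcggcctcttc

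Searched on both strands were AGGTCA (the core element bound by PPARA and other nuclear receptors), TCAAGGTCA (estrogen-related receptors), CACGTG (the E-box), TGACGTCA (the cAMP response element), TGACG (its shorter form), TCACCCCAC (a sterol response element) and CCAAT (bound by NF-Y). The longer motifs contain the shorter ones, so AGGTCA also counts inside TCAAGGTCA and TGACG inside TGACGTCA. The Slc25a20 window held none of them. The third start of Slc25a25 held TGACGTCA, beginning 150 bases before the start, and a CCAAT box in reverse at 78 bases. TGACGTCA was in 2.34% of 14127 windows of 11075 tested protein-coding genes, and in 2 of 44 windows of the 34 members matched, those of Slc25a25 and Slc25a36. The member windows leave out a chromosome that the windows of all genes include, so the shares are not from the same rule. The windows of Slc25a39 and Slc25a45 each held 1 AGGTCA, at 172 bases in reverse and at 50 bases. AGGTCA was in 11.7% of all windows and 9.09% of the members' windows. CACGTG was in 7.82% of all windows and 15.9% of the members' (Slc25a1, Slc25a13, Slc25a14, Slc25a15, Slc25a33 and Slc25a36), CCAAT in 35.5% and 47.7%, and TGACG in 24.7% and 25%. TCAAGGTCA (0.297% of all windows) and TCACCCCAC (0.552%) were in 0 member windows. These are matches of letters only.

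Glutathione and iron carriers serve redox balance and the making of heme and iron-sulfur clusters. Slc25a39 was at 223, 228, 228 and 255 CPM in the Lpcat3 libraries and 209, 205, 198 and 222 CPM in the eGFP libraries. The groups did not overlap, but only by a small margin between Lpcat3 replicate 1 and eGFP replicate 4. Its mean was 233 ± 14.5 against 208 ± 10.04 CPM (SD, n = 4 each). On the log2 scale the edgeR estimate was 0.16 (SE 0.07; adjusted p = 0.587). With library totals it was 0.05. Slc25a40 was at 14.2, 14.1, 12.1 and 12.1 CPM in the Lpcat3 libraries and 13.9, 12.8, 12.5 and 13.3 CPM in the eGFP libraries, and its groups overlapped (log2 fold change 0.00, SE 0.09, with a 95% interval of the fold from 0.874 to 1.15). The fold of Slc25a39 had an interval of 1.001 to 1.25.

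Mitoferrin 1, encoded by Slc25a37 and known for its role in red cell precursors, was at 64.8, 82.2, 77.9 and 75.7 CPM in the Lpcat3 libraries and 63.9, 62.4, 80 and 85.5 CPM in the eGFP libraries. Slc25a28 was at 9.85, 12.5, 12.7 and 11.6 CPM in the Lpcat3 libraries and 11.3, 11.97, 10.4 and 11.4 CPM in the eGFP libraries. Both overlapped between groups, with log2 fold changes of 0.04 (SE 0.12) and 0.05 (SE 0.10). Erythroid markers summed to 383 to 509 CPM in the Lpcat3 group and 415 to 644 CPM in the eGFP group. Among 10 genes of heme and iron-sulfur synthesis, 8 were above 0 and 0 passed. Within codes 1344 and 1345, 4 of the 10 were above 0 with a median of -0.04, and without both libraries numbered 3 the count was 8. Alas1, the rate-limiting enzyme of heme synthesis, was at 1046 ± 279 against 482 ± 137 CPM (log2 fold change 1.12; adjusted p = 0.564), without overlap of the groups, and Alad, which follows it, was at 69.6 ± 5.13 against 58.7 ± 8.28 CPM. Without both libraries numbered 3 their estimates were 0.82 and 0.13.

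**Figure D3:**
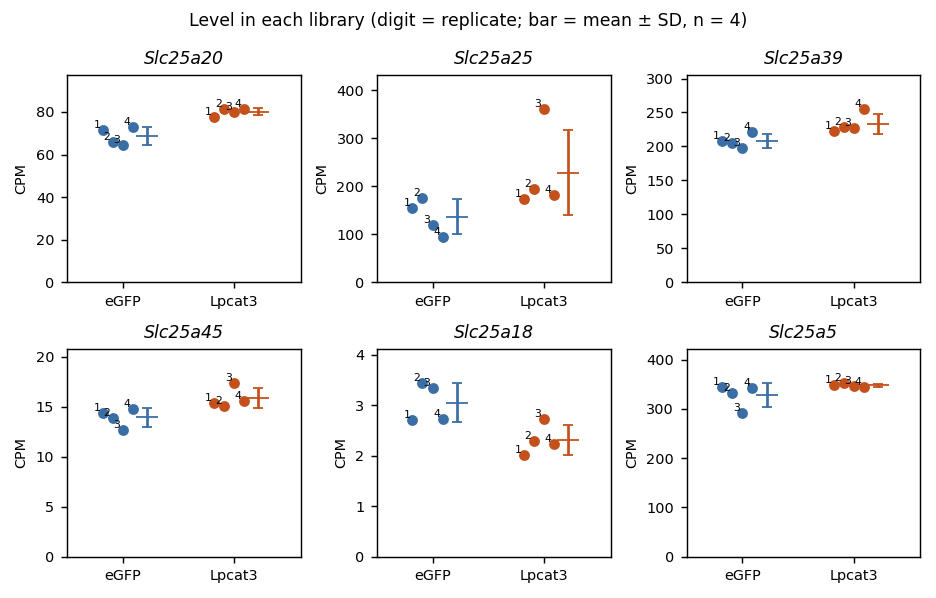
CPM in each library, with the replicate number beside each point and the mean ± SD (n = 4) beside each group, for the 5 members with an unadjusted p under 0.05 and for Slc25a5. The Lpcat3 libraries lie above the eGFP libraries for Slc25a20, Slc25a39, Slc25a45 and, narrowly, Slc25a5, while Slc25a25 is spread from 174 to 360 CPM in the Lpcat3 group.

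Aspartate and glutamate carriers feed the malate-aspartate shuttle and the urea cycle. Slc25a13 was at 257, 280.2, 339 and 259 CPM in the Lpcat3 libraries and 225, 248, 179.6 and 289 CPM in the eGFP libraries. The 2 groups overlapped, since eGFP replicate 4 lay above 3 of the Lpcat3 libraries. Its log2 fold change was 0.27 (SE 0.15; adjusted p = 0.63), and 0.06 once replicate 3 of each group was left out. Slc25a22, the main glutamate carrier here, was at 128 ± 17.4 against 106 ± 21.9 CPM, a log2 fold change of 0.28 that was 0.10 under the same omission. Slc25a18, the other glutamate carrier, was the 1 member on the lower side with an unadjusted p under 0.05, at 2.02, 2.297, 2.73 and 2.23 CPM in the Lpcat3 libraries and 2.71, 3.43, 3.34 and 2.73 CPM in the eGFP libraries. Lpcat3 replicate 3 reached into the eGFP range, and the others lay below it. Its mean was 2.32 ± 0.299 against 3.05 ± 0.387 CPM (SD, n = 4 each). On the log2 scale the edgeR estimate was -0.40 (SE 0.16; adjusted p = 0.579). It stayed on the lower side in all 17 refits, from -0.53 to -0.34, and within both code pairs (-0.62 and -0.17). Slc25a12 was at 20.8 ± 1.67 against 20.7 ± 0.394 CPM, with a 95% interval of the fold from 0.9001 to 1.13. Of 8 genes of the malate-aspartate shuttle and citrate export, 7 were above 0 and 0 passed. Within codes 1344 and 1345, 4 of the 8 were above 0 with a median of -0.0013, and without both libraries numbered 3 the count was 6. Got1, the cytosolic transaminase, was at 148 ± 37.6 against 98.9 ± 44.7 CPM, a log2 fold change of 0.59 that was 0.23 without both libraries numbered 3.

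Slc25a15 carries ornithine into and citrulline out of mitochondria and so links the mitochondrial and cytosolic steps of the urea cycle. It was at 237, 207, 342 and 256 CPM in the Lpcat3 libraries and 187, 272, 164 and 250.0 CPM in the eGFP libraries. The lowest libraries were eGFP replicates 3 and 1 and the highest was Lpcat3 replicate 3, while the other 5 overlapped. The log2 fold change was 0.25 (SE 0.20; adjusted p = 0.688), and -0.02 once replicate 3 of each group was left out. The 7 enzymes of the urea cycle and of ornithine metabolism were all above 0 (median 0.17) with 0 passing, and all 7 were below 0 within codes 1344 and 1345. Without both libraries numbered 3 only 1 of 7 was above 0, and the median was -0.09. Oat, which breaks ornithine down, was at 729 ± 181 against 489.7 ± 253 CPM, and Asl, which releases fumarate and arginine, at 199 ± 71.97 against 148 ± 58.8 CPM. Without the 2 libraries numbered 3 their log2 fold changes of 0.57 and 0.43 were 0.26 and -0.06. Over the 8 libraries Slc25a15 and the mean log2 CPM of the 7 enzymes had r = 0.95 (exact permutation p = 0.000719, adjusted 0.00327 over the 6 relations computed) and rho = 0.90 (exact p = 0.00456, adjusted 0.0274). Without the 2 libraries farthest from the median, both numbered 3, r was 0.83. The libraries share TMM scaling, and each pair of codes holds 4, too few for a value of its own. No other member was set against this list, so whether the relation is particular to Slc25a15 was not tested. Slc25a48 and Slc25a23 were also lowest in eGFP replicate 3 (1.89 and 182 CPM) and highest in Lpcat3 replicate 3 (8.82 and 391 CPM). Lpcat3 replicate 3 was the highest library for 17 members and the lowest for 7. For eGFP replicate 3 it was the lowest for 20 and the highest for 2. The relations were chosen after the values were seen.

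**Figure D4:**
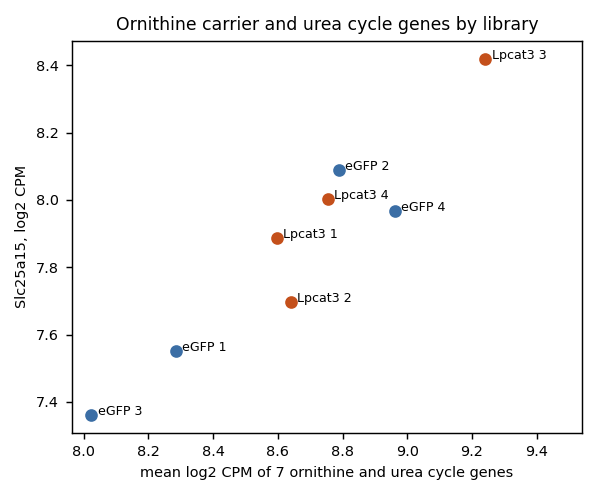
Each point is one library, with the mean log2 CPM of 7 ornithine and urea cycle genes on the x axis and the log2 CPM of Slc25a15 on the y axis; orange is Lpcat3 and blue is eGFP. The libraries run from eGFP replicate 3 at the lower left to Lpcat3 replicate 3 at the upper right, with both groups mixed between.

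Of the other 5 relations, Slc25a13 with the malate-aspartate list had r = 0.87 (exact permutation p = 0.00588, adjusted 0.0118) and rho = 0.71 (exact p = 0.0576, adjusted 0.115), and r was 0.38 without the 2 farthest libraries, eGFP replicates 1 and 3, on which it rests. For Slc25a20 and the carnitine system no pooled value is given, because Slc25a20 separated by group. Slc25a37 and Slc25a28 with the heme list had r = 0.28 and 0.54 (exact permutation p = 0.522 and 0.161, adjusted 0.522 and 0.241) and rho = 0.50 and 0.64 (exact p = 0.216 and 0.0962, adjusted 0.259 and 0.144). Without the 2 farthest libraries these r were 0.73 and 0.67. The Slc25a24 relation had an adjusted p of 0.243 for r and 0.462 for rho, and its r was 0.60 without the 2 farthest.

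The remaining amino acid carriers gave no common direction. Slc25a29, for basic amino acids, was at 0.602, 1.104, 0.959 and 1.51 CPM in the Lpcat3 libraries and 1.38, 1.23, 1.08 and 1.07 CPM in the eGFP libraries. Slc25a38, which brings in glycine for heme synthesis, was at 9.596, 8.97, 10.8 and 9.83 CPM in the Lpcat3 libraries and 7.897, 11.8, 8.43 and 9.99 CPM in the eGFP libraries, and Slc25a44, the branched-chain amino acid carrier, at 63.3, 53.9, 51.97 and 69.3 CPM in the Lpcat3 libraries and 59.01, 65.9, 57.02 and 66.8 CPM in the eGFP libraries. All 3 overlapped between groups, with log2 fold changes of -0.18 (SE 0.28), 0.04 (SE 0.13) and -0.06 (SE 0.10). The Slc25a29 value was 0.01 without Lpcat3 replicate 1 and -0.42 without Lpcat3 replicate 4, and the Slc25a38 value was -0.06 without both libraries numbered 3.

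Carriers of di- and tricarboxylates move citrate, malate and oxoglutarate between matrix and cytosol. All 4 had estimates above 0, from 0.15 to 0.21, and 0 passed (adjusted p = 0.621 to 0.672). Without both libraries numbered 3 these estimates were smaller, at 0.08 for Slc25a1, 0.07 for Slc25a10, 0.08 for Slc25a11 and 0.07 for Slc25a21. Slc25a1, the citrate carrier that supplies cytosolic acetyl-CoA, was at 125, 132, 131 and 123 CPM in the Lpcat3 libraries and 115, 118, 97.01 and 127 CPM in the eGFP libraries. Only eGFP replicate 4 reached the Lpcat3 range, and eGFP replicate 3 was the lowest library. Slc25a10, the dicarboxylate carrier, was at 148, 171, 175 and 157 CPM in the Lpcat3 libraries and 143, 148, 117 and 164 CPM in the eGFP libraries, with the same libraries at the ends of the eGFP group. Slc25a11, which exchanges oxoglutarate for malate, was at 37.1 ± 0.899 against 33.4 ± 4.03 CPM and Slc25a21, the oxodicarboxylate carrier, at 12.3 ± 1.65 against 10.6 ± 2.096 CPM. Within codes 1344 and 1345 the 4 differences ran from -0.06 to 0.03, with 2 above 0, and within 1290 and 1317 all 4 were above 0. Slc25a11 overlaps the gene Rnf167 (6767 and 6089 counts), so its reads are uncertain, and Slc25a21 overlaps Pax9 (2189 and 164 counts).

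Carriers of nucleotides, coenzymes and vitamins had 7 of 9 estimates above 0 (median 0.15), and 0 passed. Within codes 1344 and 1345 only 3 of 9 were above 0, with a median of -0.03, and without both libraries numbered 3 the median was 0.06. Slc25a42, which imports coenzyme A, was at 99.2, 108, 116 and 109.9 CPM in the Lpcat3 libraries and 86.1, 84.5, 81.2 and 114 CPM in the eGFP libraries. Of the eGFP libraries only replicate 4 lay within the Lpcat3 range, and it stood far above the other 3. The log2 fold change was 0.25 (SE 0.11; adjusted p = 0.59), 0.37 without eGFP replicate 4, 0.16 without both libraries numbered 3 and -0.03 within codes 1344 and 1345, where that library is the only control. Slc25a51, the carrier of NAD+, was at 86.6, 95.1, 148 and 92.1 CPM in the Lpcat3 libraries and 70.2, 106, 65.2 and 81.6 CPM in the eGFP libraries. Lpcat3 replicate 3 was far above the others, and the log2 fold change of 0.39 (SE 0.20; adjusted p = 0.625) was 0.09 without both libraries numbered 3. Slc25a16 was at 90.5 ± 9.55 against 80.1 ± 10.7 CPM, the folate and FAD carrier Slc25a32 at 49.2 ± 4.68 against 42.3 ± 8.602 CPM and the peroxisomal carrier Slc25a17 at 27.3 ± 1.37 against 24.6 ± 3.28 CPM. Their log2 fold changes were 0.18, 0.22 and 0.15 with all libraries, 0.04, 0.12 and 0.06 without the 2 numbered 3, and -0.02, -0.07 and -0.07 within codes 1344 and 1345. The pyrimidine nucleotide carriers differed in sign, with Slc25a36 at 12.7 ± 1.54 against 14.6 ± 1.63 CPM and Slc25a33 at 9.17 ± 1.69 against 8.304 ± 1.17 CPM. Slc25a26, for S-adenosylmethionine, had a log2 fold change of -0.01 (SE 0.14). Slc25a26 overlaps Lrig1, which has more counts, and is uncertain.

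The carriers that supply the ATP synthase had estimates close to 0. Slc25a5 was at 348, 352, 347 and 344 CPM in the Lpcat3 libraries and 343, 333, 291 and 342 CPM in the eGFP libraries. Its groups were separated by less than 1 CPM, the Lpcat3 libraries lay close together, and eGFP replicate 3 was low. The log2 fold change was 0.09 (SE 0.08; adjusted p = 0.725), with a 95% interval of the fold from 0.944 to 1.19. Slc25a3, the phosphate carrier, was at 116, 115, 120.0 and 117 CPM in the Lpcat3 libraries and 117, 112, 108 and 115 CPM in the eGFP libraries. It varied least of the well-expressed members in the eGFP group after Slc25a12 (3.28% and 1.91% coefficient of variation), and the interval of its fold was 0.948 to 1.13. With library totals both estimates were below 0, at -0.03 and -0.07. Slc25a4 was at 3.79, 4.46, 2.88 and 3.06 CPM in the Lpcat3 libraries and 3.81, 4.17, 3.64 and 2.97 CPM in the eGFP libraries, with overlapping groups and a log2 fold change of -0.04 (SE 0.18).

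Proteins related to the uncoupling proteins had 3 of 3 estimates above 0, and 0 passed. Slc25a30 was at 75.7, 57.3, 75.3 and 69.97 CPM in the Lpcat3 libraries and 60.1, 32.6, 92.03 and 32.01 CPM in the eGFP libraries. Within the eGFP group it held both the highest and the lowest libraries of all 8, with a coefficient of variation of 52.5% against 12.3% in the Lpcat3 group. Its log2 fold change was 0.36 (SE 0.32; adjusted p = 0.726), 0.70 when replicate 3 of each group was left out, and 0.18 without eGFP replicate 2 or without eGFP replicate 4. Slc25a14 was at 2.24, 1.72, 1.63 and 1.79 CPM in the Lpcat3 libraries and 1.77, 1.84, 1.86 and 1.28 CPM in the eGFP libraries and Slc25a27 at 7.696 ± 1.19 against 7.48 ± 1.99 CPM. Their log2 fold changes were 0.13 (SE 0.19) and 0.04 (SE 0.19). Over the 17 refits that of Slc25a14 ran from 0.0089 to 0.35. That of Slc25a27 ran from -0.07 to 0.24 and was above 0 in 13. Ucp2, an uncoupling protein of the same family that is abundant in macrophages, was at 65.7, 54.6, 36.2 and 47.3 CPM in the Lpcat3 libraries and 88.5, 56.4, 70.2 and 49.5 CPM in the eGFP libraries. Lpcat3 replicate 3 was lowest and eGFP replicate 1 highest (log2 fold change -0.38; adjusted p = 0.637). Leaving out replicate 3 of each group gave -0.21. Ucp1 and Ucp3 had too few counts to be tested.

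Slc25a46, which lies in the outer membrane and takes part in mitochondrial shape, was at 55.2, 61.6, 71.1 and 62.4 CPM in the Lpcat3 libraries and 52.96, 56.6, 56.2 and 64.97 CPM in the eGFP libraries, with overlap of the groups and a log2 fold change of 0.12 (SE 0.09), which was 0.04 without both libraries numbered 3. Within both code pairs its difference was near 0 (-0.0010 and -0.0013).

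Among members with less settled substrates, 4 of 7 were above 0 and 0 passed. Slc25a45 was at 15.3, 15.1, 17.3 and 15.6 CPM in the Lpcat3 libraries and 14.4, 13.9, 12.6 and 14.8 CPM in the eGFP libraries, without overlap of the groups. Its mean was 15.8 ± 1.01 against 13.9 ± 0.939 CPM (SD, n = 4 each). On the log2 scale the edgeR estimate was 0.18 (SE 0.08; adjusted p = 0.589). Without both libraries numbered 3 the value was 0.09, and with library totals 0.07. Slc25a47 was at 261, 254, 208 and 276 CPM in the Lpcat3 libraries and 271, 249, 224 and 269 CPM in the eGFP libraries. Its groups overlapped, the 95% interval of its fold ran from 0.8404 to 1.16, and Lpcat3 replicate 3 was the lowest library. Slc25a34 was at 4.86, 3.36, 5.18 and 4.81 CPM in the Lpcat3 libraries and 4.204, 3.72, 2.97 and 4.83 CPM in the eGFP libraries, and overlapped too (log2 fold change 0.21, SE 0.19, and 0.03 without both libraries numbered 3). Slc25a48 had the widest spread of any member, with 4.66 times more in the highest library than in the lowest, at 5.49 ± 2.25 against 4.62 ± 2.62 CPM, and its log2 fold change of 0.25 (SE 0.43) was -0.34 without both libraries numbered 3. Slc25a35, Slc25a43 and Slc25a53 were all under 4 CPM on average, with log2 fold changes of -0.08, -0.37 and 0.11 and SEs of 0.22, 0.34 and 0.33. Without the 2 libraries numbered 3 the log2 fold changes were -0.22, -0.20 and -0.0029. Slc25a53 overlaps Zcchc18 (137 and 85 counts) and is uncertain.

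Carriers enter the inner membrane through a dedicated import path, from Tomm70a on the outer membrane through the small Timm proteins to Timm22. Of 12 genes of this path, 10 were above 0 (median log2 fold change 0.12), 2 were below and 0 passed. Tomm40, the pore of the outer membrane, was at 26.3 ± 2.72 against 21.8 ± 2.42 CPM and Timm10, a chaperone of the space between the membranes, at 6.54 ± 0.882 against 5.29 ± 0.923 CPM, with adjusted p of 0.569 and 0.611. The 3 outer membrane channels were all above 0, with Vdac1 at 215 ± 10.01 against 202 ± 14.5 CPM and Vdac2 at 44.3 ± 0.975 against 41.6 ± 3.02 CPM. Of 7 genes of the pyruvate carrier and the sideroflexins, 4 were above 0, with Mpc2 at 50.04 ± 5.74 against 44.9 ± 4.57 CPM and Sfxn3 at 3.27 ± 0.747 against 4.102 ± 1.07 CPM. Mtch1, a family member under another symbol, was at 35.7 ± 0.571 against 34.5 ± 2.19 CPM. In all, 46 of 56 partner genes tested (82.1%) were above 0 with a median of 0.10, and 0 passed. Beside this, 48.5% of all genes and 55.9% of those with at least 10 CPM on average were above 0. An unadjusted edgeR p under 0.05 was held by 5.36% of the partner genes, beside 8.48% of all genes. The groups did not overlap for 1.79% of them, beside 4.16% of all genes. Within codes 1344 and 1345 the count of partner genes above 0 was 26 of 56. Without both libraries numbered 3 it was 36 of 56, with a median of 0.03, and Mpc2 and Sfxn3 had log2 fold changes of 0.0073 and 0.0019, from 0.16 and -0.33.

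Lpcat3 replicate 3 was the highest of the 8 libraries for 17 of 43 members and eGFP replicate 3 the lowest for 20, as counted, with no test. Summed over the members, the family took 3128, 3213, 3789 and 3255 CPM in the Lpcat3 libraries and 2865, 3079.8, 2563 and 3175 CPM in the eGFP libraries (replicates 1 to 4). The sums overlapped, since eGFP replicate 4 exceeded Lpcat3 replicate 1. The median member stood at 0.07, 0.12, 0.19 and 0.13 above the eGFP mean on the log2 scale in the Lpcat3 libraries and at 0.00, 0.05, -0.13 and 0.09 in the eGFP libraries, where the median of all genes stayed within -0.01 to 0.01. Summed hepatocyte markers were also highest in Lpcat3 replicate 3 (87512 CPM) and lowest in eGFP replicate 3 (44045 CPM). Alb made up most of both sums (56982 and 28657 CPM), and the markers did not all follow it. Apoa1 and Cyp2e1 were highest in other libraries, and Serpina1c, Fgb and Hnf4a were lowest in other libraries. Hnf4a was at 488 CPM in Lpcat3 replicate 3 and 466 CPM in eGFP replicate 3. What part the marker levels have in the carrier values was not tested.

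**Figure D5:**
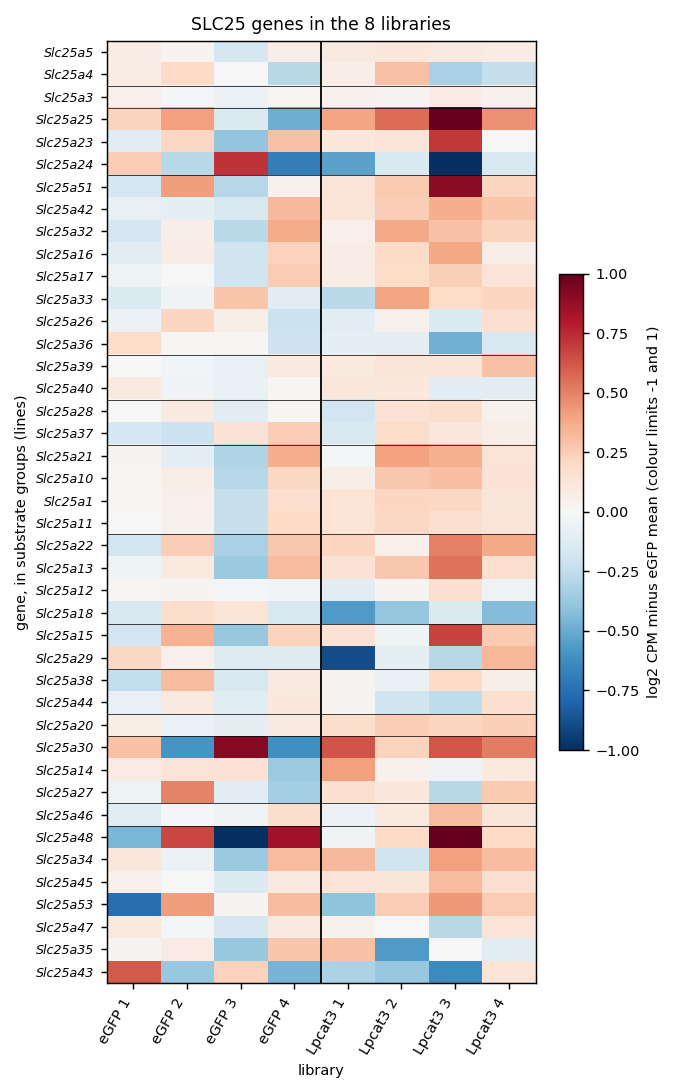
Colour gives the log2 CPM of 42 members in each library minus the gene's mean over the 4 eGFP libraries, from blue (lower) to red (higher), with limits at -1 and 1 and lines between substrate groups. Lpcat3 replicate 3 is the reddest column for Slc25a25, Slc25a23, Slc25a51 and Slc25a15, and eGFP replicate 3 is mostly blue, with Slc25a24 and Slc25a30 going the other way.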

How the data were processed

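Liver RNA was measured in 8 libraries, 4 per group. Per the labels' protocols, ribosomal RNA was removed, stranded libraries were made and single-end reads were sequenced in 1 lane. The authors deposited whole-number counts per gene with NCBI gene identifiers. The submitters' processing notes name bcl2fastq 2.20, DESeq2 and genome build GRCm39, while for the aligner, the counter and its strand setting the sources used here give nothing. Symbols were matched for 39397 of 40838 rows. Genes with enough counts (filterByExpr, minimum count 10) were fitted with edgeR 4.0.16 (R 4.3.3), using TMM scaling, robust quasi-likelihood tests and Benjamini-Hochberg adjustment over all 17438 genes, and a gene passed at an adjusted p under 0.05. Every adjusted p of a gene is from this edgeR fit unless another tool is named. Each SE was derived from the edgeR test, as the absolute log2 fold change over the square root of its F statistic. Intervals of folds are 95% and use that SE with a t quantile matched to the p of the same test. The fit had 6 residual degrees of freedom. CPM per kilobase used union exon lengths from GENCODE M21 (GRCm38), which differs from the authors' build. Alternatives used other scalings, no filter, non-robust estimation, omitted libraries, a replicate block, a code term, DESeq2 1.42.0 and limma-voom (limma 3.58.1). Values are given per library for members with an unadjusted p under 0.05, for those whose groups did not overlap, for the 8 with the most counts and for up to 2 per substrate group with the smallest p. Up to 2 genes per partner list are named by the same measure. Members and lists were chosen with earlier results of these data known. Counts, medians and sums cover all members and partner genes, of which 1 member and 1 partner gene are not reported here on their own.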

Additional observations from a re-analysis of the deposited data

Results flagged for a closer look

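In 7 of 86 groups of 4 libraries checked, 1 library lay far from the other 3 relative to the range of the group. The rule flags about 1 in 20 groups of independent, normally spread values. Members share the same 8 libraries and are not independent, so 7 of 86 cannot be compared with that rate. Lpcat3 replicate 3 was the distant library in 4 of the 7. It held 360.3 CPM of Slc25a25, an ATP-Mg/phosphate carrier, where the other Lpcat3 libraries held 174 to 195 CPM. For Slc25a23, of the same substrate group, it held 391 CPM against 239 to 264 CPM. For the NAD+ carrier Slc25a51 it held 148 CPM against 86.6 to 95.1 CPM, and for Slc25a48 8.82 CPM against 3.92 to 4.61 CPM. Lpcat3 replicate 4 stood above its group for the glutathione carrier Slc25a39, with 255 CPM against 223 to 228 CPM. The eGFP replicate 4 library held 114 CPM of the coenzyme A carrier Slc25a42 against 81.2 to 86.1 CPM, and 1.28 CPM of Slc25a14 against 1.77 to 1.86 CPM.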

How the results depend on the processing

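No SLC25 member passed in any refit, and the smallest adjusted p was 0.153, for Slc25a20 in DESeq2. The count over all genes, 1 in edgeR, was 3 with library totals, 0 without the filter, 2 without robust estimation, 51 with DESeq2, 0 without both libraries numbered 3, 0 with a term for the code pairs, and 0 to 7 with 1 library left out, the 7 without Lpcat3 replicate 1. The members' median log2 fold change, 0.13, was 0.0083 with library totals, 0.0435 without both libraries numbered 3, 0.0443 with the code term and 0.0201 within codes 1344 and 1345; with 1 library left out it ran from 0.09 to 0.18. Lpcat3, at 1.25 (adjusted p = 0.164) in edgeR, passed with library totals (1.12, adjusted p = 0.0234), in DESeq2 (1.25, adjusted p = 9.77e-09) and without Lpcat3 replicate 1 (1.36, adjusted p = 0.0477), and ran from 1.10 to 1.36 over the libraries left out. Slc25a42 turned to -0.0304 within codes 1344 and 1345. The cause of these shifts was not tested. With the replicate number as a block, 0 genes passed. Deviations of same-numbered libraries from their group means had r of 0.28, -0.07, -0.40 and -0.12 for numbers 1 to 4. These r differ in sign and have no test, so whether the numbers pair the libraries was not tested.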
